A study of Mus musculus with 40 samples.

Results

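The cilium and dynein genes are here the genes whose symbol starts with Cfap, Dnah, Ift or Bbs and a digit, or with Dync1, Dync2, Dynll, Dynlt, Dynlrb, Dnai or Dnal. Interferon-induced Ifit genes share only the first letters of a name and were left out. Of the 17097 named genes on the array, 73 met this rule, through 109 of 45141 probe sets, and where a gene had several, the one with the highest 40-array mean was used. The rule goes by name and uses no measured difference between groups, but it was set with earlier results of these data known.

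Dyneins are motors that walk along microtubules towards their minus end. Cytoplasmic dynein 1 carries cargo through the cell body and takes part in mitosis, and dynein 2 returns material from the tip of a cilium to its base. The intraflagellar transport (IFT) complexes are the trains that carry cargo along the cilium: IFT-B is needed mainly for the way out and IFT-A for the way back and for the entry of membrane proteins. The BBSome, named after Bardet-Biedl syndrome, moves membrane proteins out of the cilium and is put together with the help of chaperonin-like proteins. Axonemal dyneins and most proteins with a Cfap (cilia and flagella associated protein) name belong to motile cilia and sperm tails, which melanocytes do not have.

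RNA was measured in B16F10, a melanoma line from C57BL/6 mice, in culture and as tumours formed after injection of the line under the skin of C57black6J mice aged 8 weeks. Cultures were treated with OTX015 (4 arrays), which blocks the bromodomains with which BET proteins read acetylated histones, or were untreated (4 arrays). Tumours came from mice given OTX015 by mouth (10 arrays) and from untreated mice of the same experiment (11 arrays). Other tumours came from mice given guadecitabine, which blocks DNA methylation, intraperitoneally (6 arrays), and from untreated mice of that experiment (5 arrays). All 6 groups hold the same line, and the tumours also hold cells of the mouse, since the labels mention no sorting although they call the samples melanocyte cells. Dose, duration of treatment and sex are not in the labels, nor whether each replicate is a culture or mouse of its own, so p-values measure the spread between these samples, which may be technical.

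All levels below are log2 values after quantile normalization of the 40 arrays to 1 distribution, because as deposited the OTX015-treated tumours had lower values throughout (array means 4.35 to 4.39, against 4.55 to 4.64 on the other 30 arrays). A level of 4.47, the 95th percentile of the means of 81 olfactory and vomeronasal receptor probe sets, is called the background level. Of the melanocyte markers, 7 of 7 lay above background in every group, with array means between 11.2 and 11.7. Of 8 macrophage markers, 8 lay above background in each tumour group and 1 in either culture group. Bulk RNA cannot tell fewer cells of a type from less RNA per cell. Of 7 measured markers of multiciliated epithelium, 2 lay above background in OTX015-treated cells and 1 in each of the other groups, and the mean of the 7 stayed between 3.53 and 4.07 on all arrays. A gene was called changed at a limma p under 0.05 after Benjamini-Hochberg adjustment over the 17097 genes (adjusted p).

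The members fell into those of ordinary cell transport and the primary cilium, which were mostly detected, and those of motile cilia, which mostly were not. By the mean over 40 arrays, 37 of 73 members (50.7%) lay above background, against 9090 of 17097 genes (53.2%). In all 6 groups 34 members lay above it, in none 32. All 11 measured IFT-B subunits, all 3 IFT-A subunits and both dynein 2 chains, the heavy chain Dync2h1 and the light intermediate chain Dync2li1, were above background in each of the 6 groups. So were 3 of 4 chains of cytoplasmic dynein 1 (Dync1h1, Dync1i2 and Dync1li1) and 4 of 5 dynein light chains (Dynll1, Dynll2, Dynlrb1 and Dynlt3). The exceptions were Dync1i1, above background in 1 group alone, and Dynlt1b, in none.

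Of 15 axonemal dynein chains, 11 lay below background in all 6 groups, among them every measured Dnah heavy chain but Dnah11. Above it in every group were Dnah11, the outer-arm intermediate chain gene Dnaic1 and the light chain genes Dnal1 and Dnal4. Of 25 Cfap genes, 17 were below background in all groups and 5 above in all. Of 8 genes of the BBSome and its chaperonins, Bbs4 and Bbs7 were above in every group and 3 (Bbs1, Bbs9 and Bbs12) in none. Foxj1, the transcription factor gene of multiciliated cells, also lay below background, with a mean of 3.49 in OTX015-treated tumours and 3.32 in their controls, and of 3.29 in guadecitabine-treated tumours and 3.12 in their controls.

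**Figure D1:**
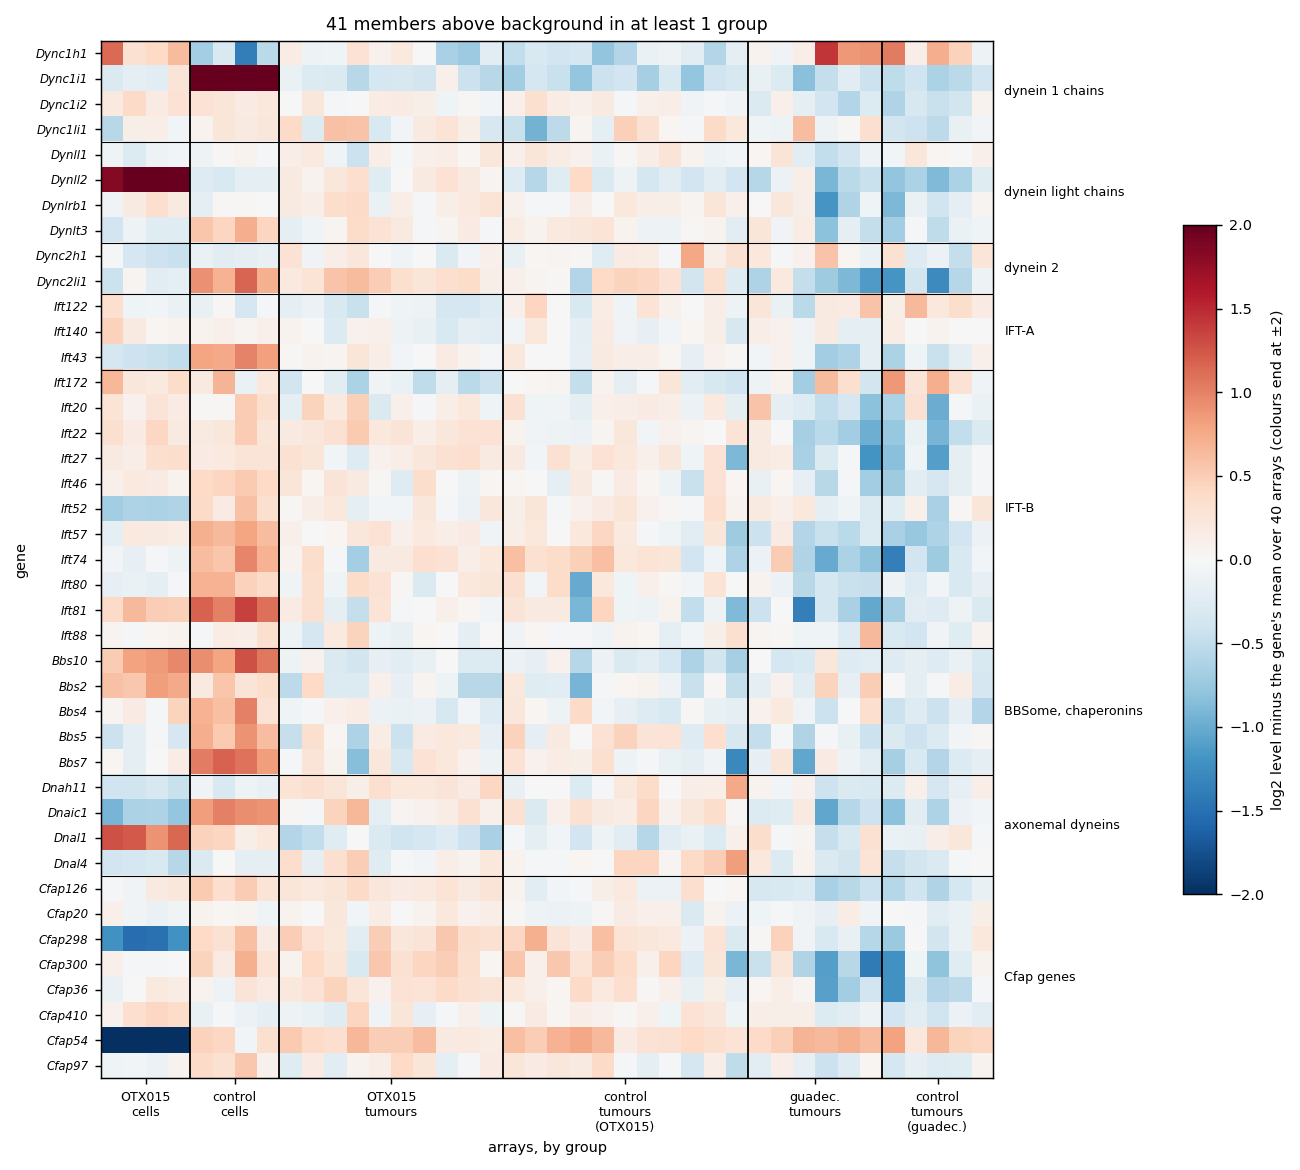
Level of each of the 41 members above background in at least 1 group (rows, by role) on each of the 40 arrays (columns, by group), as log2 level minus the gene's mean over all arrays; colours end at ±2. Cfap54 is low in OTX015-treated cells alone, Dync1i1 is high in control cells alone, and Dynll2 is high in OTX015-treated cells.

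In cultured cells treated with OTX015, 6 of 11 IFT-B subunits and 5 of 8 genes of the BBSome group were lower, and a few dynein genes changed strongly in both directions. Of the 73 members, 6 were called higher and 23 lower. Among all 17097 genes 39.6% were called, 18.8% higher and 20.8% lower, so the members' total (39.7%) was close to the background share, while 31.5% of members were lower. The median change was -0.05 over the members and 0.00 over all genes. Falls were also counted for 5 of 25 Cfap genes, 3 of 15 axonemal dynein chains, 1 of 3 IFT-A subunits and 1 of 2 dynein 2 chains. Of the dynein light chains 2 of 5 rose and 1 fell, and of the dynein 1 chains 1 of 4 rose and 1 fell.

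The intermediate chains of dynein 1 link the motor to its cargo adaptors. Dync1i1, one of the 2 intermediate chain genes, read 3.96, 4.05, 4.02 and 4.50 in the treated cultures, against 7.55, 7.49, 8.11 and 7.90 in the controls. Its treated mean lay below the background level, so the size of the fall is a bound: at least 9.71-fold lower (limma adjusted p = 8.25e-10, with a fitted change of -3.63 ± 0.15 on the log2 scale, SE, 4 arrays a group). The other intermediate chain gene, Dync1i2, had means of 8.89 in treated and 8.86 in control cells and was not called. Dync1h1, the heavy chain with the motor domain, read 9.85, 9.02, 9.12 and 9.34 with OTX015 and 8.04, 8.41, 7.33 and 8.17 without. All 4 treated cultures lay above every control, and the rise was 2.54-fold (log2 change 1.35 ± 0.21, limma adjusted p = 1.74e-04).

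Dynll2, a small dimeric light chain that dynein shares with other protein complexes, made the largest rise among the members. It read 10.12, 10.37, 10.33 and 10.26 in treated cultures and 8.04, 7.98, 8.11 and 8.09 in controls, a 4.65-fold rise (log2 change 2.22 ± 0.07, limma adjusted p = 1.82e-10). Neither group spread over more than a small part of the gap between them. Its close relative Dynll1 changed by -0.12 and was not called. Dynlt3, a light chain of another family, fell by 0.78 on the log2 scale (limma adjusted p = 8.37e-06), and Dynlrb1, of the third family, had a difference of 0.19 that was not called.

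The sequences around the starts of 5 members that fell (Dync1i1, Cfap298, Bbs7, Dnaic1 and Ift43) and of Dync1h1, which rose, are shown to let the letters be read beside the changes. The RFX half-site was searched because RFX factors regulate many ciliary genes, and the 5 were picked to hold members with and without it. Each is the 300-base window around the annotated start from RefSeq (mouse assembly GRCm38.p6), 5′ to 3′ on the gene's strand, with the RFX half-site GTTGCC or its reverse complement GGCAAC in capitals. The windows are chr6:5725389-5725688 (plus strand), chr16:90934800-90935099 (minus), chr3:36613340-36613639 (minus), chr4:41569544-41569843 (plus), chr12:86082311-86082610 (plus) and chr12:110601145-110601444 (plus), in the order shown.
Dync1i1: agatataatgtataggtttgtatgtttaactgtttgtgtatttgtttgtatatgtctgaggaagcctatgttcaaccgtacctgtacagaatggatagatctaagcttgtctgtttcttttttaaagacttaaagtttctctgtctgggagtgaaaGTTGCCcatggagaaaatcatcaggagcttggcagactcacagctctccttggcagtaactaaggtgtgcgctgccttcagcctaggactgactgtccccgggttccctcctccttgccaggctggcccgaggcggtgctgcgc
Cfap298: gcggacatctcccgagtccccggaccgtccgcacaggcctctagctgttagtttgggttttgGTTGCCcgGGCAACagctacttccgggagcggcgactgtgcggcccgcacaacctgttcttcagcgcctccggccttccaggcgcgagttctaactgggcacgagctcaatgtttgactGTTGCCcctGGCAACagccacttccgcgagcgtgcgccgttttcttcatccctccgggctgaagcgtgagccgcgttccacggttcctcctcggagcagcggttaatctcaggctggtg
Bbs7: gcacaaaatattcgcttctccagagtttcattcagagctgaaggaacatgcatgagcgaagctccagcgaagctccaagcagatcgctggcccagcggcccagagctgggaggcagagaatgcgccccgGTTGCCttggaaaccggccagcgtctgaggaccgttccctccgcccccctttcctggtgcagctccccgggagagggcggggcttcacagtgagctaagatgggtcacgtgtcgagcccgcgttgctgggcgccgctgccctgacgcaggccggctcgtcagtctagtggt
Dnaic1: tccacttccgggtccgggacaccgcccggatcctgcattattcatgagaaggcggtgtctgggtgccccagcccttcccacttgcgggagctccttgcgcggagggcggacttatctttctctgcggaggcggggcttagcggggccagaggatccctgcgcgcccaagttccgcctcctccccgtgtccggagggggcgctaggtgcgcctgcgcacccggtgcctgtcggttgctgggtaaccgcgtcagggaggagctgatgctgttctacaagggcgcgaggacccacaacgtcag
Ift43: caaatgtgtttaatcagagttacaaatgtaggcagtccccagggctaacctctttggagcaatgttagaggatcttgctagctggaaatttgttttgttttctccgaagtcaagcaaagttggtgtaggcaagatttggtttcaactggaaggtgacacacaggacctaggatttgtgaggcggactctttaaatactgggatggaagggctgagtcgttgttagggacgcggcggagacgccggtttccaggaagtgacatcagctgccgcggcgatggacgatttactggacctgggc
Dync1h1: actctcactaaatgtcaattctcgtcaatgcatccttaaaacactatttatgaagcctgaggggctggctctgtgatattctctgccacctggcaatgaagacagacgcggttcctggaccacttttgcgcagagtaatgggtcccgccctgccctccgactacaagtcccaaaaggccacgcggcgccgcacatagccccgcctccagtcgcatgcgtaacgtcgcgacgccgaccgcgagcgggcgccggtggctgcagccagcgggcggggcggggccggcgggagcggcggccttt

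Cfap298 held 4 half-sites, GTTGCC followed by GGCAAC, and the same again further on, Dync1i1 and Bbs7 held 1 each, and Dnaic1, Ift43 and Dync1h1 held none in these windows. RefSeq windows were at hand for 62 of the 73 members, with 66 windows in all, and Cfap54 and Dynll2 were not among them. The half-site, read on either strand, occurred in 21 of 66 member windows (31.8%) and in 4111 of 32851 windows of all genes (12.5%). By gene it occurred for 7 of 18 members that fell in OTX015-treated cells (38.9%), for 0 of 4 that rose and for 13 of 40 others (32.5%), so the share among those that fell was near that of the members that were not called. The E-box CACGTG, the core site of MYC and related factors, was in 6 of 66 member windows (9.09%) and in 7.15% of all windows. A match is a description of the letters and not of binding.

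Of dynein 2, Dync2li1 read 5.74, 6.24, 5.96 and 5.98 in treated cultures and 7.09, 6.88, 7.35 and 6.89 in controls. The groups did not overlap, and the gene was 2.10-fold lower (log2 change -1.07 ± 0.12, limma adjusted p = 7.94e-06). The heavy chain Dync2h1 had means of 5.32 and 5.45 in treated and control cells and was not called.

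Among the IFT-A subunits, Ift43 read 7.07, 7.0, 6.96 and 6.91 with OTX015, against 8.19, 8.16, 8.41 and 8.22 without. It was 2.39-fold lower (log2 change -1.26 ± 0.08, limma adjusted p = 2.66e-08). The other 2, Ift122 and Ift140, differed by 0.14 and 0.10 and were not called, so the 3 subunits with an Ift name did not share a change. The IFT-A gene Wdr19, which has another name and also fell, is given below. A second probe set of Ift122 rose by 0.32 when every probe set was tested.

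The 6 IFT-B subunits that fell were Ift52, Ift74, Ift80, Ift81, Ift57 and Ift46, by 1.0 to 0.30 on the log2 scale, and no IFT-B subunit rose. Ift52, which holds the IFT-B core together, read 6.4, 6.48, 6.47 and 6.49 in treated cultures and 7.48, 7.26, 7.68 and 7.42 in controls (2.00-fold lower, limma adjusted p = 7.61e-07). Ift74 and Ift81, the pair that binds tubulin, fell by 0.80 and 0.66 (limma adjusted p = 9.12e-06 and 3.86e-05). Ift88, without which cilia do not form in mice, had a difference of -0.10 and was not called, and the remaining 4 subunits lay between -0.03 and 0.13. The probe sets of Ift80 disagreed: the chosen one fell by 0.69 and the other rose by 0.41.

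In the BBSome, Bbs7 read 5.00, 4.77, 4.96 and 5.10 in treated cultures, against 5.98, 6.12, 6.04 and 5.79 in controls, 2.04-fold lower (log2 change -1.03 ± 0.09, limma adjusted p = 9.32e-07). Its second probe set lay near 3.47, below background, and did not differ (-0.01). Bbs4, the subunit tied to centriolar satellites, fell by 0.49 (limma adjusted p = 0.0119). Bbs5 was at least 1.54-fold lower, since its treated mean of 4.15 lay below background, and Bbs1 and the chaperonin gene Bbs12 were called lower although both lay below background in every group. Bbs2 moved the other way, reading 4.57, 4.53, 4.83 and 4.75 with OTX015 and 4.17, 4.55, 4.25 and 4.35 without. In all, 3 of the 4 treated cultures exceeded every control (log2 change 0.34, limma adjusted p = 0.0112), all close to the background level, and the call was lost when all 6 groups were fitted together (adjusted p = 0.227).

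Motile-cilium genes above background gave the largest single change. Cfap54, a protein of the central apparatus of motile cilia, read 3.85, 4.11, 4.26 and 4.22 in treated cultures, against 8.62, 8.56, 8.10 and 8.47 in controls. All 4 treated readings lay below background, so the gene was at least 15.6-fold lower (fitted log2 change -4.33 ± 0.12, limma adjusted p = 3.84e-11). This rests on 1 of its 2 probe sets, since the other lay at a mean of 2.51, below background, in these cultures. Dnaic1, an outer-arm intermediate chain, read 6.95, 7.25, 7.27 and 7.11 with OTX015 and 8.73, 8.89, 8.81 and 8.79 without, 3.16-fold lower (limma adjusted p = 4.94e-09), and its second probe set fell by 1.63.

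Cfap298, which in zebrafish and human is needed to assemble axonemal dynein arms, read 5.01, 4.70, 4.73 and 5.02 in treated cultures and 6.63, 6.53, 6.83 and 6.4 in controls. The chosen probe set was 3.32-fold lower (log2 change -1.73 ± 0.11, limma adjusted p = 3.17e-08). Its 4 probe sets disagreed: 2 fell (-1.73 and -1.49), and 2 did not differ (0.14 and -0.01). Dnal1, an outer-arm light chain, rose, reading 7.44, 7.39, 7.06 and 7.31 with OTX015 and 6.62, 6.59, 6.27 and 6.37 without (log2 change 0.84 ± 0.10, limma adjusted p = 1.64e-05). Cfap410 rose by 0.42 (limma adjusted p = 9.31e-04) with all 4 treated cultures above the controls. Dnal4 and Dnah11 each fell by 0.23, Cfap300, Cfap97 and Cfap126 by 0.38 to 0.33, and Dynlt1b was called higher by 0.24 below background.

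**Figure D2:**
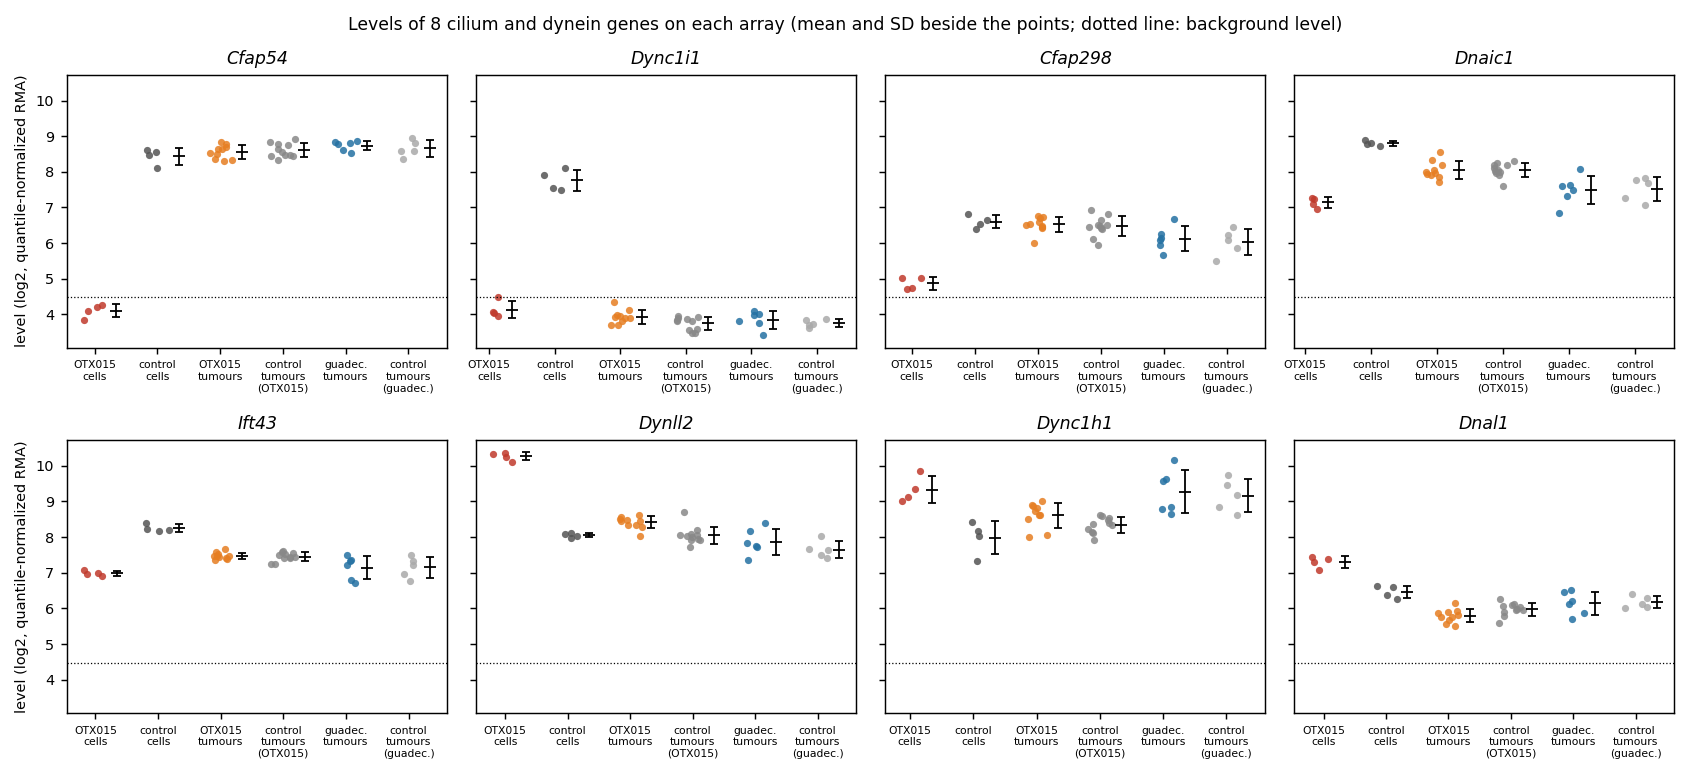
Level (log2, quantile-normalized) of 8 members on each array, by group, with the mean and SD of each group beside its points and the background level of 4.47 as a dotted line. In OTX015-treated cells the means of Cfap54 and Dync1i1 lie below the background level, and Dynll2 lies above 10. Dync1i1 also lies below background in all 4 tumour groups.

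Genes of the same structures outside the naming rule changed in both directions. In OTX015-treated cells 18.8% of all genes were called higher and 20.8% lower. The counts in this and the next 2 paragraphs stand beside these shares, and several are near them. Of 9 measured IFT and BBSome subunits or partners with other names, 2 fell and none rose: the IFT-B gene Cluap1 (-0.65, limma adjusted p = 3.16e-04) and the IFT-A gene Wdr19 (-0.42). Of 5 genes of kinesin 2, the motor for the outward trip, Kif3a rose by 0.85 and Kifap3 fell by 0.35. Of 9 genes of dynactin, the activator complex of dynein 1, 3 rose, among them Dctn1 (0.90), and 4 fell, among them Dctn6 (-0.68). Of 13 regulators and adaptors of dynein, 6 rose and 2 fell, with Ninl at 1.23 and the adaptor gene Bicd2 at 1.17 having the smallest p-values.

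At the base of the cilium, 6 of 16 transition zone genes fell and 1 rose, with the smallest p-values for Cc2d2a (-1.51 ± 0.12, limma adjusted p = 2.37e-07) and B9d1 (-0.99). Of 14 basal body and ciliogenesis genes 6 rose, among them Ttbk2, a kinase that starts cilium growth (1.51 ± 0.08, limma adjusted p = 1.39e-08), and Cep350 (0.85), and 2 fell. Among 9 ciliogenesis transcription factors 1 rose and 2 fell, Rfx5 (-1.01) and Rfx3 (-0.67; limma adjusted p = 6.90e-07 and 1.44e-04). Rfx3 regulates ciliary genes, and Rfx5 is known chiefly for MHC class II genes. Axonemal dynein assembly factors gave 3 rises and 4 falls among 11, Ruvbl1 at -0.96 and Dnaaf2 at 0.75, and genes of the radial spokes, central apparatus and tektins 1 rise and 3 falls among 19. Of 9 genes of the hedgehog pathway, which signals through the primary cilium, 2 rose, Sufu by 0.73 and Gli3 by 0.47, and none fell.

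Other features moved with the treatment in the same cultures. The mean of 3 nuclear-retained RNAs, Malat1, Neat1 and Meg3, was 7.19 to 7.67 on treated and 6.12 to 6.30 on control arrays. Of 7 proliferation genes 4 rose. Of 7 multiciliated markers 2 rose, Ccno (1.08) and Tppp3 (1.05). Their part in the changes of the cilium and dynein genes was not tested.

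In tumours, OTX015 changed few members, none by more than 0.36 on the log2 scale. Of the 73, 4 were called higher and 4 lower (11.0%), against 16.2% of all genes (8.68% higher and 7.51% lower), with a median of 0.01 for members and for all genes. Of the 8, 4 lay below background in both groups (Cfap61 higher, Dnah7a, Cfap20dc and Cfap45 lower), which leaves Dynll2, Ift22, Cfap126 and Ift122.

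Dynll2 spanned 8.04 to 8.62 (median 8.46) in OTX015-treated tumours and 7.72 to 8.69 (median 8.03) in their controls. The ranges overlapped, mainly through control replicate 4 at 8.69, and the change was 0.36 ± 0.09 (n = 10 and 11, limma adjusted p = 0.00767). Ift22, a small GTPase of IFT-B, spanned 6.70 to 7.09 (median 6.81) with OTX015 and 6.45 to 6.84 (median 6.62) without, a change of 0.22 ± 0.05 (limma adjusted p = 0.00642). In 4 of 10 treated tumours it was above every control, and the call was lost when all 6 groups were fitted together (adjusted p = 0.118).

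Cfap126, which in mice acts at the basal bodies of multiciliated cells, spanned 4.89 to 5.10 (median 4.95) with OTX015 and 4.50 to 5.06 (median 4.73) without, near the background level (0.21 ± 0.06, limma adjusted p = 0.0103). Ift122, an IFT-A subunit, spanned 7.02 to 7.43 (median 7.24) in treated and 7.16 to 7.89 (median 7.55) in control tumours (-0.28 ± 0.07, limma adjusted p = 0.0116). In 3 of 10 treated tumours it was below every control. The call of Ift122 was lost when its 2 probe sets were averaged (-0.05, adjusted p = 0.748) and when arrays were centred on their medians (-0.26, adjusted p = 0.230).

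These calls depended on the scale. On the deposited values the median of all genes was -0.21 and that of the members -0.20, 0 members were called higher and 38 lower, and Dynll2, Ift22 and Cfap126 stood at 0.14, 0.00 and -0.06, none called. With arrays centred on their medians the members split 7 higher and 2 lower. Macrophage markers moved with the treatment: 7 of 8 fell (median -1.22), and their mean per array was 4.43 to 6.70 in treated and 6.15 to 8.29 in control tumours. Their part in the changes of the members was not tested.

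Among related genes in the same tumours, the IFT and BBSome partners Ttc21b and Ttc8 rose by 0.35 and 0.55 (limma adjusted p = 0.0245 and 0.0466), and 0 of 9 fell. Of the dynein regulators, Hook3 rose by 0.41, and of dynactin, Dctn1 by 0.21. Of the kinesin 2 genes, Kif3c fell by 0.26. None of the 9 ciliogenesis transcription factors and none of the 9 hedgehog genes was called, beside 8.68% of all genes higher and 7.51% lower. Of 16 transition zone genes 3 were higher and 1 lower, and of 14 basal body genes 1 and 1. Of 19 genes of the radial spokes, central apparatus and tektins 3 were higher and 2 lower, with 4 of the 19 above background in treated tumours. Of 11 axonemal dynein assembly factors 1 was higher and 0 lower.

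**Figure D3:**
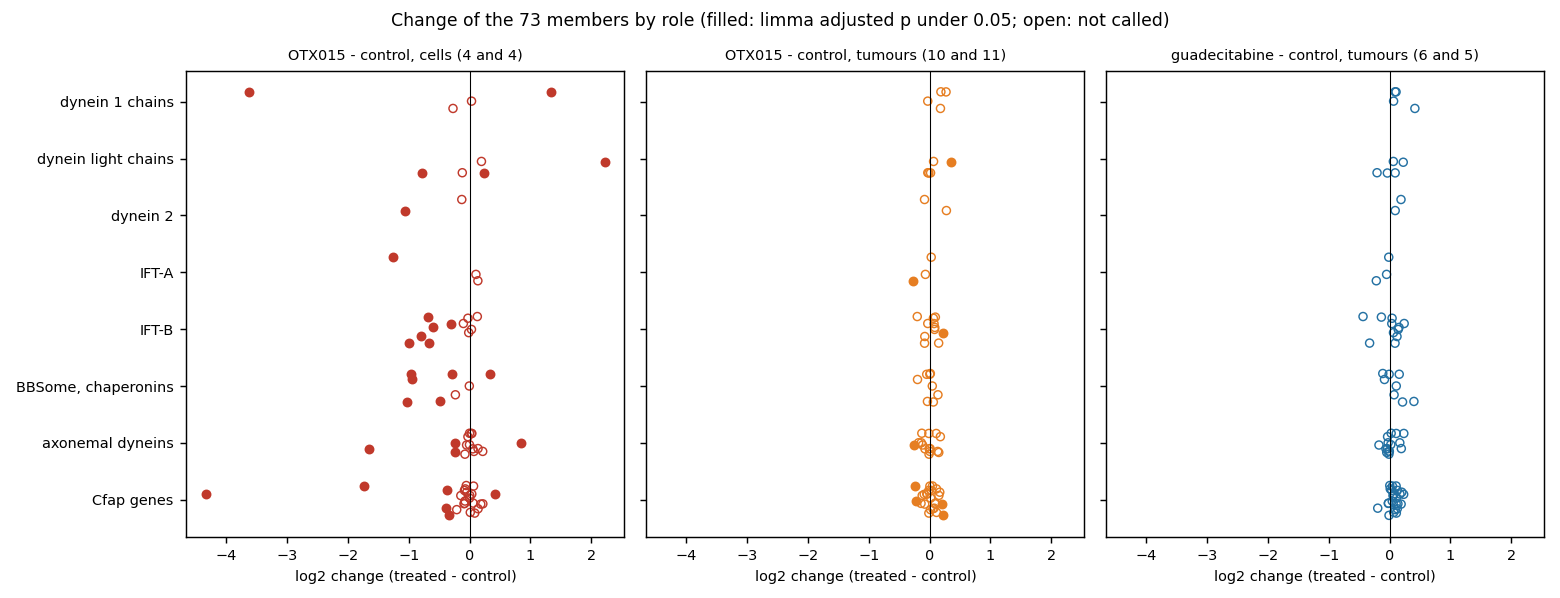
Log2 change (treated minus control) of each of the 73 members by role, for OTX015 in cells (4 and 4 arrays), OTX015 in tumours (10 and 11) and guadecitabine in tumours (6 and 5), filled where the limma adjusted p was under 0.05. In cells the members spread from -4.33 to 2.22, in OTX015-treated tumours from -0.28 to 0.36, and with guadecitabine from -0.44 to 0.42.

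The effect of OTX015 in tumours was set against that in cells by a contrast of the 4 group means in 1 fit. A difference was called for 24 of the 73 members (32.9%), about the share over all genes (32.7%). The change was higher in tumours than in cells for 18 members (24.7%), against 18.0% of all genes, and lower for 6 (8.2%), against 14.6%. Of the 23 members that fell in cells, 0 fell and 1 rose (Cfap126) in tumours, where 7.51% of all genes were called lower and 8.68% higher. The changes of the 23 in tumours ranged from -0.20 to 0.28 with a median of 0.03. Of the 6 that rose in cells, 1 (Dynll2) rose in tumours. The difference was called for 18 of the 23 and for 5 of the 6. These members were picked by their change in cells, which the difference contains, so the 18 and the 5 are not a separate test. On the deposited values, where all genes shift down in treated tumours, the split over the 73 members was 13 higher and 22 lower. With arrays centred on their medians it was 19 and 4.

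The 2 largest upward differences among members above background in all 4 groups were those of Cfap298 (1.78 ± 0.19, limma adjusted p = 1.12e-08) and Dnaic1 (1.65 ± 0.16, limma adjusted p = 2.84e-09). That of Cfap298 rests on the chosen probe set, and 2 of its 4 probe sets did not differ in cells. For Cfap54 the difference was at least 3.91, since its treated cultures lay below background (fitted 4.28 ± 0.16). Cfap54 remained high in tumours, with 8.31 to 8.82 (median 8.59) in OTX015-treated and 8.32 to 8.92 (median 8.55) in control tumours, about the level of control cells. Dync1i1 had no level above background left to lose, with 3.69 to 4.34 (median 3.91) in treated and 3.47 to 3.95 (median 3.82) in control tumours, so no fall could have been measured there and its fitted difference of 3.81 does not compare responses. Dnaic1 and Cfap298 were well above background in both tumour groups, with means of 8.05 and 8.06 for Dnaic1 in treated and control tumours and of 6.52 and 6.48 for Cfap298.

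The 4 largest differences downward were those of Dynll2 (-1.86 ± 0.15), Dync1h1 (-1.07 ± 0.25), Dnal1 (-1.02 ± 0.15) and Cfap410 (-0.51 ± 0.13). Dynll2 rose in both settings, but by 0.36 in tumours and 2.22 in cells. Dync1h1 spanned 7.99 to 9.0 (median 8.67) in treated and 7.92 to 8.61 (median 8.38) in control tumours, a difference of 0.27 that was not called. Dnal1 had a mean of 5.79 in treated and 5.97 in control tumours. Doses and times are not given, and those of the cultures and the mice cannot be matched.

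**Figure D4:**
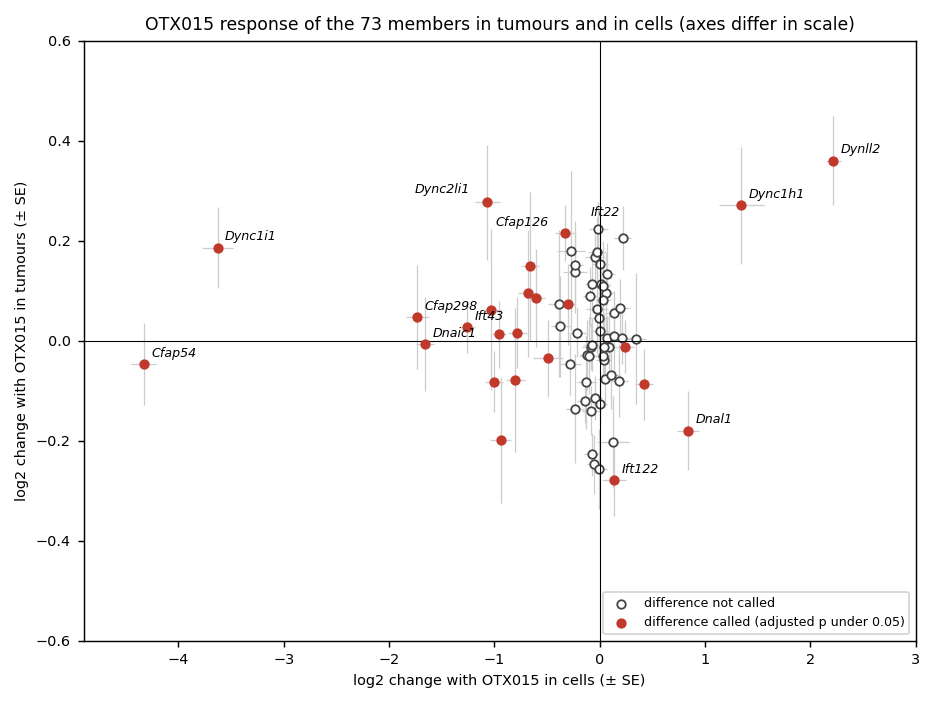
Log2 change with OTX015 in tumours (vertical axis) and in cells (horizontal axis, on a wider scale) for the 73 members, with SE bars; filled points have a called difference between the 2 effects. Dynll2 lies right and highest, and Cfap54 and Dync1i1 lie far to the left at tumour changes of -0.05 and 0.19.

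Guadecitabine changed no member at the threshold. Of the 73 members 0 were called, as were 0.0% of all 17097 genes by limma. At an unadjusted p under 0.05 4 members were higher and 1 lower, against 938 and 333 genes in all, and 0 members were called under each of the alternatives tried. The 4 members above background with the smallest p were Bbs4, Dync1li1, Cfap410 and Ift172.

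Bbs4 spanned 5.50 to 6.27 (median 5.97) in guadecitabine-treated tumours and 5.34 to 5.73 (median 5.50) in their controls, with 5 of 6 treated tumours above every control (0.40 ± 0.13, n = 6 and 5, limma adjusted p = 0.552). Dync1li1, a light intermediate chain of dynein 1, spanned 7.38 to 8.10 in treated and 6.95 to 7.43 in control tumours (0.42 ± 0.15, limma adjusted p = 0.596). Cfap410 and Ift172 differed by 0.23 and -0.44 (limma adjusted p = 0.666 and 0.709). Within these groups the spread was wide: Dync1h1 spanned 8.65 to 10.15 in treated and 8.61 to 9.76 in control tumours, and the mean of the 3 nuclear-retained RNAs 5.54 to 7.89 and 6.37 to 7.44. These values were not tested against each other.

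Set against guadecitabine, the effect of OTX015 in tumours was lower for 1 member and higher for 0, while 3.56% of all genes differed (1.41% higher, 2.15% lower). The member was Cfap45 (-0.27, limma adjusted p = 0.0160), which lay below background in all 6 groups. No difference was called for a member above background.

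In control tumours more members were lower than higher when set against control cells, in both experiments. In the OTX015 experiment 6 members were higher and 25 lower in control tumours than in control cells (background 42.1% called, 21.7% higher and 20.4% lower), with a median of -0.12 for members and 0.02 for all genes. In the guadecitabine experiment 2 were higher and 36 lower (background 37.1%, 12.9% higher and 24.3% lower), with medians of -0.25 and -0.08. In either experiment 40 members lay above the background level in a group compared. Of these, 2 were higher and 18 lower in the OTX015 experiment, and 2 and 26 in the guadecitabine experiment. The other calls were on members below that level. The comparisons share the 4 control cultures, so they are not independent. The background depended on the scale: in the OTX015 experiment, with arrays centred on their medians, 4 members were higher and 36 lower, against 2152 genes higher and 5725 lower, and on deposited values 10 members higher and 34 lower, against 3499 and 5005 genes. All 8 genes of the BBSome and its chaperonins were lower in both, of which 4 (Bbs4, Bbs5, Bbs7 and Bbs10) lay above background in control cells and the rest in none of these groups. Of 11 IFT-B subunits 7 were lower in the first and 9 in the second, and 0 were higher.

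Dync1i1 showed the widest gap. Control tumours read 3.47 to 3.95 (median 3.82, n = 11) in the OTX015 experiment and 3.62 to 3.87 (median 3.74, n = 5) in the guadecitabine experiment, against 7.49 to 8.11 in the 4 control cultures. All 16 control tumours lay below background, and the gene was at least 9.75-fold lower in either set (fitted log2 difference -4.02 ± 0.12 and -4.0 ± 0.13, limma adjusted p = 5.92e-13 and 7.89e-09). The means of Dync1i1 in control tumours, 3.74 and 3.76, and in OTX015-treated cells, 4.13, were thus all below background. Of 7 melanocyte markers, 1 was higher and 2 were lower in both sets, with medians of -0.16 and 0.04. Of all genes, 21.7% were higher and 20.4% lower in the OTX015 experiment, and 12.9% and 24.3% in the guadecitabine experiment. The part of the melanoma cell share in the gap of Dync1i1 was not tested.

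Bbs7 averaged 4.87 ± 0.43 (SD, n = 11) and 4.55 ± 0.21 (n = 5) in the control tumours of the OTX015 and guadecitabine experiments, against 5.98 in control cells (-1.11 and -1.43, limma adjusted p = 4.76e-04 and 6.21e-06). Ift81 averaged 6.10 ± 0.45 and 5.93 ± 0.21 in these tumours and 7.40 in control cells (-1.30 and -1.47, limma adjusted p = 1.52e-04 and 5.12e-06). In both genes every control tumour lay below every control culture. Bbs10, a chaperonin gene, was at least 1.05-fold lower in both, since its level in control cells (4.55) was barely above background.

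Dync2li1 averaged 6.25 ± 0.35 and 5.48 ± 0.51 in the control tumours and 7.05 in control cells (-0.80 and -1.57, limma adjusted p = 0.00159 and 3.39e-04), and Ift43 differed by -0.80 and -1.09. Of the members above background, those called higher in control tumours of the OTX015 experiment were Dnal4 (0.41, limma adjusted p = 0.0264) and Cfap410 (0.20, limma adjusted p = 0.0312). Their differences in the guadecitabine experiment were -0.06 and -0.15, not called. Whether the 2 experiments differ in these was not tested. Both calls were lost without control culture 1, 3 or 4 (adjusted p between 0.0612 and 0.0959), and Dnal4 stood at -0.08 with arrays centred on their medians. Dync1h1 was higher by 1.18 ± 0.26 in the control tumours of the guadecitabine experiment (limma adjusted p = 0.00397) and had a difference of 0.35 in those of the OTX015 experiment, not called.

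**Figure D5:**
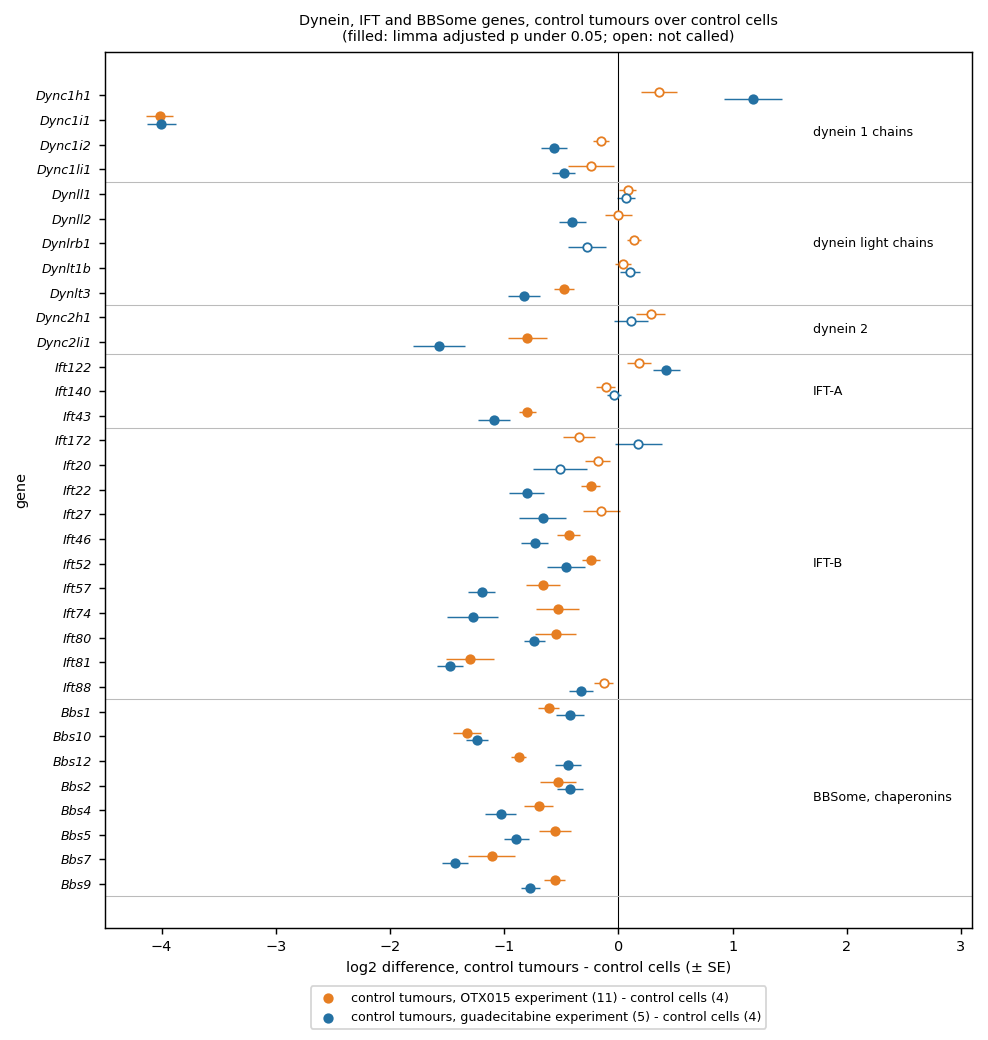
Log2 difference (± SE) between control tumours and control cells for the dynein, IFT and BBSome genes, in the OTX015 experiment (11 tumours, orange) and the guadecitabine experiment (5 tumours, blue), both against the same 4 cultures; filled points have a limma adjusted p under 0.05. Dync1i1 lies near -4 in both, all 8 genes of the BBSome group lie left of 0, and Dync1h1 lies right of 0.

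Host cells and RNA features differed between the same groups. The 8 macrophage markers were higher in control tumours than in control cells in both experiments (8 of 8, median differences 4.06 and 3.09), and the mean of the 3 nuclear-retained RNAs was 5.41 to 6.25 in control tumours of the OTX015 experiment and 6.37 to 7.44 in those of the guadecitabine experiment, against 6.12 to 6.30 in control cells. In the guadecitabine experiment 4 of 13 dynein regulators and adaptors were higher than in cells and 4 lower. Bicd2 and Pafah1b1, among those higher, differed by 1.95 and 2.55. The part of these features in the members' differences was not tested. Growth in the mouse, the presence of host cells and the experiment cannot be told apart.

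Related lists were mixed, beside 21.7% of all genes higher and 20.4% lower in control tumours of the OTX015 experiment, and 12.9% and 24.3% in those of the guadecitabine experiment. Of 9 ciliogenesis transcription factors 1 was lower and 0 higher in each experiment, Rfx3 both times (-1.49 and -1.26, limma adjusted p = 5.55e-04 and 8.84e-05). Of 16 transition zone genes 0 were higher and 6 lower in the OTX015 experiment, Invs (-1.28) and Iqcb1 (-1.05, below background) among the 6, and 2 were higher and 6 lower in the guadecitabine experiment. Of 14 basal body genes 2 were higher and 6 lower in the first, Dzip1 (-1.12) and Ccp110 (-1.0) among the 6, and 4 were higher and 7 lower in the second. Of 9 hedgehog genes 0 were higher and 1 lower in the OTX015 experiment, Gpr161, a receptor of the cilium membrane (-0.71, limma adjusted p = 0.00541). In the guadecitabine experiment 3 hedgehog genes were higher and 0 lower, Gli3 (0.68) and Smo (0.42) among the 3. Whether the experiments differ in these counts was not tested.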

How the data were processed

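RNA of 40 samples was hybridised to Affymetrix 3′ arrays, 1 array each, from 500 ng of total RNA. The authors deposited log2 values for 45141 probe sets. Per the submitters' processing notes these come from RMA in the Transcriptome Analysis Console (version not stated), and no source names the arrays that went through RMA jointly.

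Probe sets were named through GEO's platform annotation, and current symbols were looked up by Entrez number in RefSeq's GRCm38.p6 table (names only). Of them, 28898 named 1 gene, 551 several and 15692 none here. Each of 17097 genes was read from its brightest probe set by mean. Probe sets whose names end in s_at or x_at may read more than 1 transcript, here among others those of Bbs4, Cfap298, Dnaic1, Ift122 and Ift81. Values were quantile-normalized over the 40 arrays in Python (numpy 2.4.6, pandas 2.3.3). Each comparison was fitted on its own groups with lmFit and eBayes (limma 3.58.1, R 4.3.3), two-sided, with Benjamini-Hochberg adjustment over all genes, and called at an adjusted p under 0.05. The fit was tested on simulated data. Arrays give no read depth, so their number limits the precision.

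A fold against a group whose mean lay below background was bounded by raising that group's values to the background level. Named were up to 8 called members each way for OTX015 in cells, up to 5 each way in tumours, the 4 smallest p for guadecitabine, up to 6 each way for tumours over cells and up to 4 each way for differences of effects, all above background in a group compared, plus up to 2 genes by smallest p in each other list and a set of core members. Members named beyond this to complete a role, to give levels or as counts of 5 or fewer were chosen after their values were seen. Members and lists were chosen with earlier results of these data known.

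Alternatives were the deposited values, median centring, the mean of probe sets, no dim genes, a variance trend with robust estimation, 1 fit of all groups, array weights, other thresholds, a replicate block and each array left out. Added after the data were seen were every probe set on its own and leaving out the 3 arrays of lowest spread. Same-numbered cultures of the OTX015 comparison correlated at 0.10, -0.10, 0.15 and -0.08 in their deviations from the group means. For treated cultures 1 and 3 the same-numbered control was the best match. In tumours the correlations ran from -0.54 to 0.43 for OTX015 and from -0.44 to -0.05 for guadecitabine. There the same number was never the best match. The numbers were not taken to pair samples.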

Additional observations from a re-analysis of the deposited data

Results flagged for a closer look

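The effect of OTX015 differed between tumours and cells, tested as tumours minus cells on the log2 scale, for Cfap298 (1.78), Dnaic1 (1.65), Dynll2 (-1.86), Dync1h1 (-1.07), Dnal1 (-1.02) and Cfap410 (-0.51). The value of Cfap298 rests on the chosen probe set, while others of that gene did not differ in cells. For Cfap54 the fitted difference was 4.28, and at least 3.91 holds, since its treated cultures lay below background. For Dync1i1 the fitted difference was 3.81, but the gene lay below background in both tumour groups, where no fall could be measured, so this value does not compare responses.

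Single arrays stood apart from the rest of their group in 4 of 94 sets of values, over 22 genes, where chance alone flags about 1 set in 20. The 11 control tumours of the OTX015 experiment were not screened in this way. Among them Bbs7 read 3.66 in replicate 11, an array of low spread (SD 1.80), and 4.76 to 5.27 in the others. In the groups screened, the following were flagged. Bbs7 read 3.92 in guadecitabine-treated tumour 3 and 4.74 to 5.20 in the other 5. In OTX015-treated tumour 4, Ift22 read 7.09 against 6.70 to 6.87 in the other treated tumours, Cfap126 5.10 against 4.89 to 4.99, and Cfap298 6.01 against 6.44 to 6.77. That array is also 1 of the 3 with the lowest spread of deposited values (SD 1.82). Without those 3 arrays 7 members were called higher and 4 lower for OTX015 in tumours.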

How the results depend on the processing

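Counts are members called, higher and lower. For OTX015 in cells they were 18 (3 and 15) with a change of at least 1.5-fold, and 27 to 30 when 1 array was left out. For OTX015 in tumours they were 38 (0 and 38) on deposited values, 16 (9 and 7) with array weights, 4 without dim genes, 4 at an adjusted p under 0.01, 0 at 1.5-fold, and 7 to 11 when 1 array was left out. For control tumours over cells they were 20 without dim genes, 11 at 1.5-fold and 24 to 34 by array left out in the OTX015 experiment, and 25 at an adjusted p under 0.01, 21 at 1.5-fold and 31 to 39 by array left out in the guadecitabine experiment. For OTX015 in tumours minus cells they were 19 to 26 by array left out. For OTX015 minus guadecitabine they were 22 on deposited values, 0 with median centring, without dim genes, at an adjusted p under 0.01 or at 1.5-fold, 2 without the 3 arrays of low spread, and 1 to 2 by array left out. For guadecitabine they were 0 throughout. On deposited values every OTX015-treated tumour array lies lower on the whole, and without dim genes fewer genes were tested; the cause of the other changes was not tested.

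With the replicate number as a block the counts were 30 for OTX015 in cells, 10 in tumours, 0 for guadecitabine, 23 and 34 for control tumours over cells in the OTX015 and guadecitabine experiments, 25 for tumours minus cells and 1 for OTX015 minus guadecitabine. Dnal4 and Cfap410 in control tumours of the OTX015 experiment over cells lost their calls under the block (adjusted p = 0.190 and 0.0869). The sign reversed in 3 cases: Cfap126 for OTX015 in tumours on deposited values (-0.063, adjusted p = 0.287), Dnal4 with median centring (-0.0845, adjusted p = 0.553) and Cfap410 with the mean of probe sets (-0.018, adjusted p = 0.852), the last 2 for control tumours of the OTX015 experiment over cells. Of 45 results for named genes, 36 kept their direction and side of the threshold under all alternatives run. Levels under 4.47 cannot be told from background, which limits 32 members in every group.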
